A study of Homo sapiens with 11 samples.

Results

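The inflammatory cytokine genes described here are CXCL8, CXCL1, CXCL2, IL6, IL1A, IL1B, LIF and PTGS2. The spans of the 8 genes were taken on the human build hg19, IL1A and IL1B as 1 combined span, and each of the 7 spans was widened by 5 kb on both sides to a window. All enriched intervals with at least 1 bp in a window were taken from 10 interval lists, which came to 43 of 229591 intervals on chromosomes 1 to 22 and X. The lists come from chromatin immunoprecipitation and sequencing in MDA-MB-231 cells, a mesenchymal triple-negative breast cancer line. WT cells with normal mdig protein were set against KO cells without it. Both were products of CRISPR-Cas9 work and grew in the same serum medium with blasticidin, and whether KO is a single clone is not given in the sources used here. Mdig (MINA53, RIOX2) is an oxygenase with a JmjC domain, and the antibody against it is called MINA. H3K4me3, H3K36me3, H3K9me3, H4K20me3 and MINA were each profiled in 1 WT and 1 KO library, so no difference has a replicate check and none was tested.

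CXCL8, CXCL1 and CXCL2 are chemokines that attract neutrophils through CXC receptors. IL1A and IL1B are the agonists of the interleukin-1 receptor, which switches on NF-kappaB and AP-1 and through them many inflammatory genes. IL6 and LIF are cytokines that signal through gp130 and STAT3, and PTGS2 (COX-2) is the inducible enzyme of prostaglandin synthesis. MDA-MB-231 cells are known to express several of these genes without an added stimulus. H3K4me3 lies on the promoters of active genes, H3K36me3 is laid down along transcribed gene bodies, and H3K9me3 and H4K20me3 mark silent chromatin.

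In WT cells all 7 windows held H3K4me3, and 5 held H3K36me3. In KO cells the H3K4me3 intervals at CXCL8, IL1A and IL1B were absent from the list, those at CXCL1, CXCL2, PTGS2 and upstream of LIF were narrower, and that at IL6 was kept at 6.0 kb against 5.60 kb in WT. H3K36me3 was absent in KO at CXCL2, IL1A, IL1B and PTGS2 and kept at IL6 and LIF. All 3 MINA intervals of WT cells, at CXCL1, LIF and PTGS2, had no counterpart in KO. Over the whole WT lists, 14.9% of H3K4me3, 14.5% of H3K36me3 and 61.2% of MINA intervals had none, so that absence in KO was the common state of MINA intervals anywhere. Absent means that no interval was called: the lists carry no heights and their read depth is unknown, so a weaker signal and no signal cannot be told apart.

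**Figure D1:**
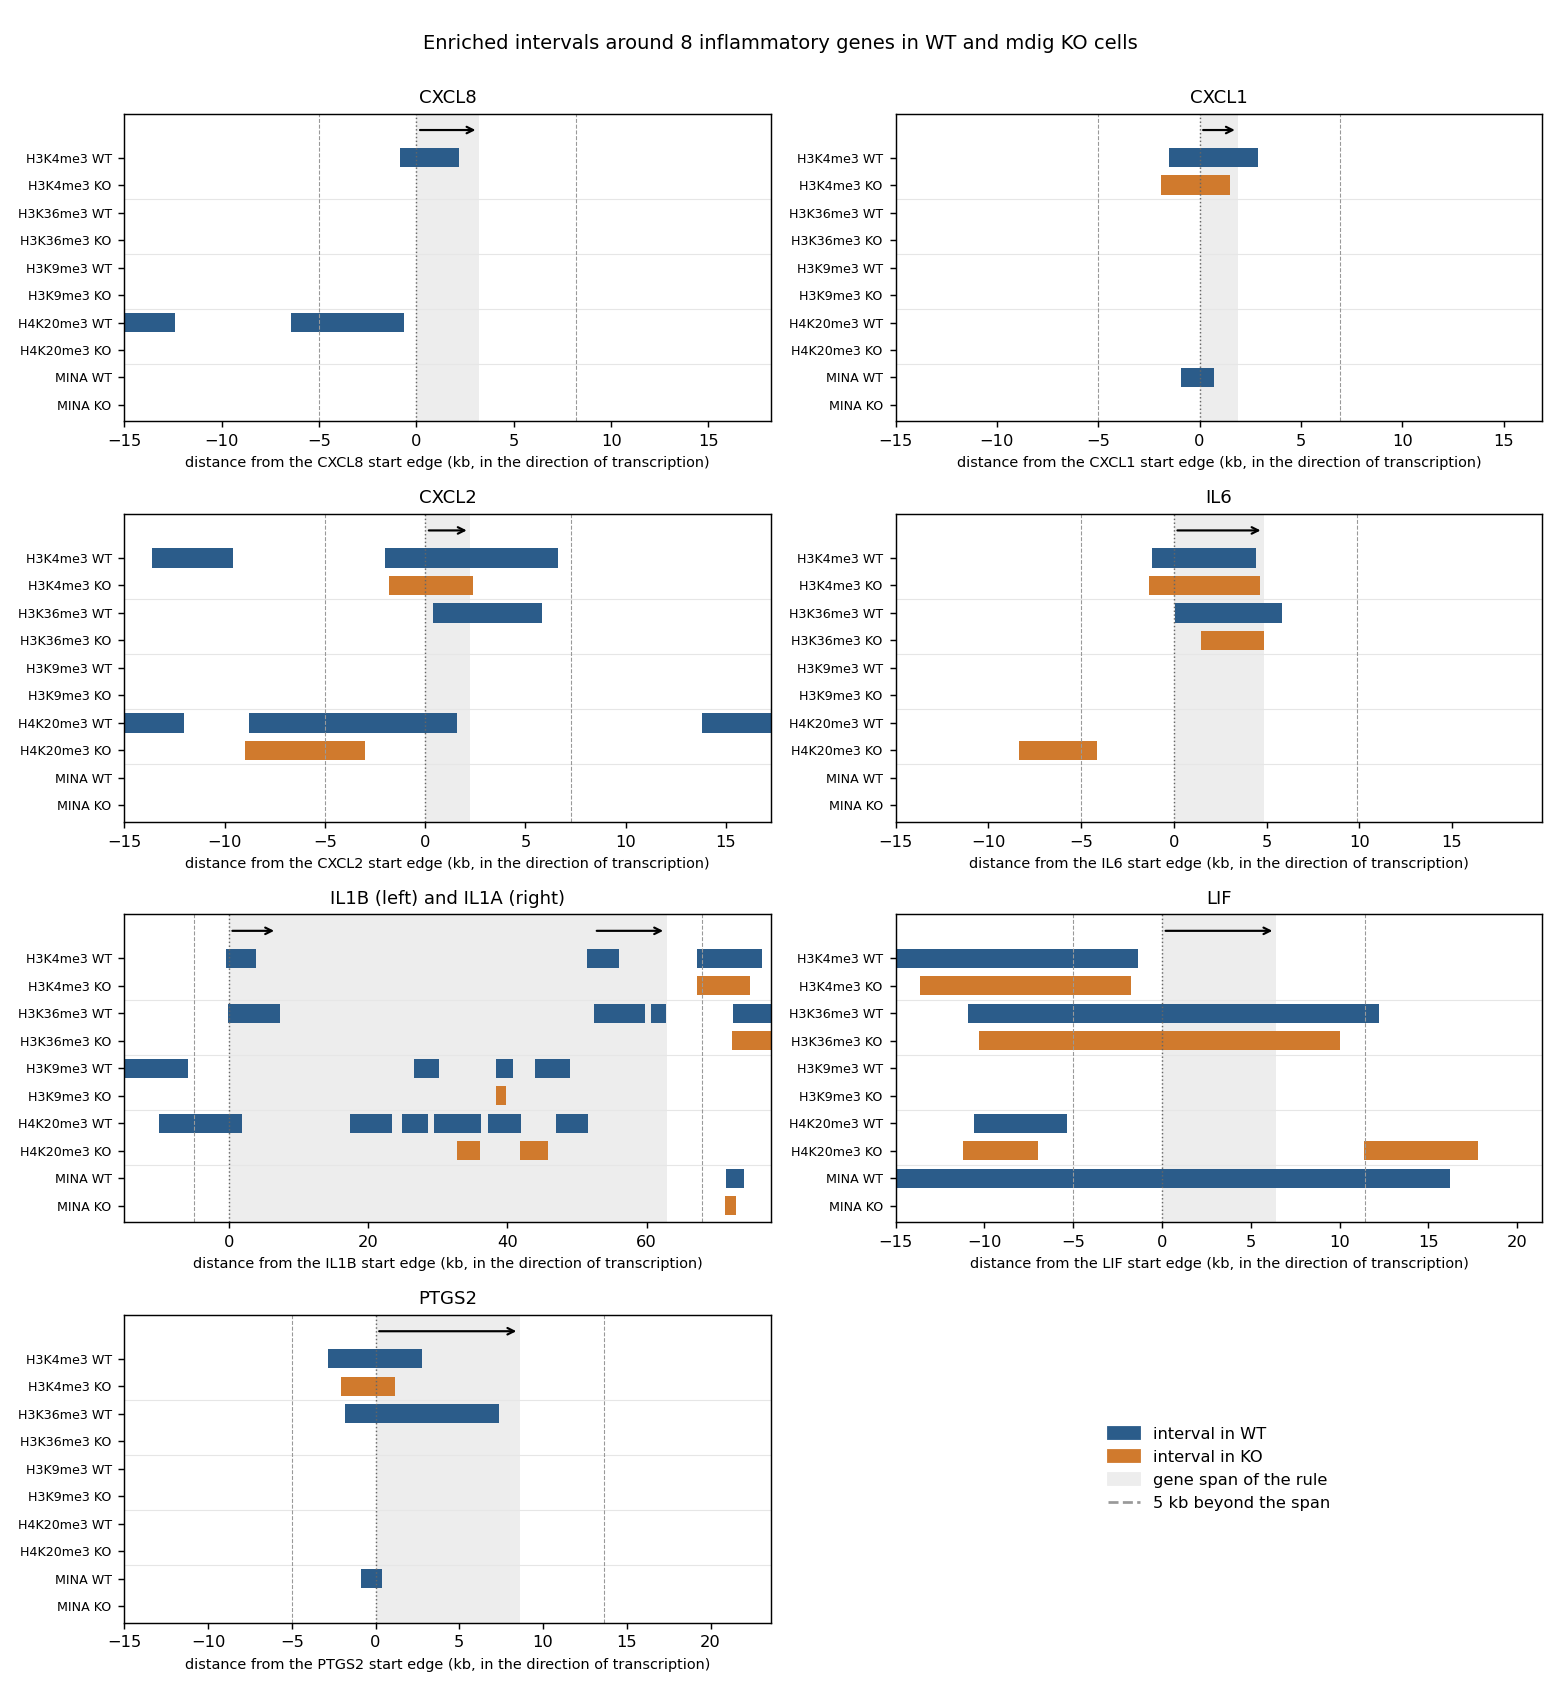
Intervals of the 10 lists around each gene, plotted by distance from the start edge of the span in kb, in the direction of transcription, with WT in blue and KO in orange. Arrows are the genes, grey shading is the given span and dashed lines lie 5 kb beyond it; IL1A and IL1B share a panel, with arrow lengths from RefSeq. The H3K4me3 interval at the start of CXCL8, IL1B and IL1A is present in WT and has no KO counterpart, while IL6 keeps both H3K4me3 and H3K36me3.

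The promoters of the 3 genes whose H3K4me3 interval was absent in KO are shown with those of CXCL1 and IL6, which kept theirs. The sequences are RefSeq windows on GRCh38.p14 from 250 bases before to 50 after a start site, 5′ to 3′ on the gene's strand. CXCL8 is at chr4:73740319-73740618 (+), IL1A at chr2:112784444-112784743 (-, the first of its 2 listed start sites), IL1B at chr2:112836730-112837029 (-), CXCL1 at chr4:73869143-73869442 (+) and IL6 at chr7:22726950-22727249 (+). Capitals mark matches to the kappaB letters GGANTTTCC and to the AP-1 letters TGANTCA, searched on both strands. The 2 motifs do not overlap each other in these windows.
CXCL8: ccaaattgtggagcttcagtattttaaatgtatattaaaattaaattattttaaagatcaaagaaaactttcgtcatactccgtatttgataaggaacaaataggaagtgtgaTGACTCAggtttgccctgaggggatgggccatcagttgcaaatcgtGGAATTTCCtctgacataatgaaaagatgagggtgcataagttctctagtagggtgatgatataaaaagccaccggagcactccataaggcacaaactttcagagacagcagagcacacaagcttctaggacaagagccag
IL1A: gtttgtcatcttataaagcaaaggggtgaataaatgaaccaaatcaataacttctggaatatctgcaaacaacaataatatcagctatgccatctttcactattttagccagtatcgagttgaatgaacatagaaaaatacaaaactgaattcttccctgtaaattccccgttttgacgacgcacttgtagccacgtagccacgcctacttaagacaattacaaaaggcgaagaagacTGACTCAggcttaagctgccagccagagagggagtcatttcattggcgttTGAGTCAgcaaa
IL1B: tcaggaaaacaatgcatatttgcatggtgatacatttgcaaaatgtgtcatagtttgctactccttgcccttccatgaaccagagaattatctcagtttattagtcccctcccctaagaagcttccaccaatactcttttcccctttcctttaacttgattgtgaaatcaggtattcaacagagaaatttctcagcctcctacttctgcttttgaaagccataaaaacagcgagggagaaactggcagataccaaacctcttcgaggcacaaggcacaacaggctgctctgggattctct
CXCL1: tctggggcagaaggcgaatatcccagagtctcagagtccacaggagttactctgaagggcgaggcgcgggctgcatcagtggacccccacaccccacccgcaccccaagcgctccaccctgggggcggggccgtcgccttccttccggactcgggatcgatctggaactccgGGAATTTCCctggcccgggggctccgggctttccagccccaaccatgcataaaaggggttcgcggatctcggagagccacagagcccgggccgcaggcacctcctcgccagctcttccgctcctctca
IL6: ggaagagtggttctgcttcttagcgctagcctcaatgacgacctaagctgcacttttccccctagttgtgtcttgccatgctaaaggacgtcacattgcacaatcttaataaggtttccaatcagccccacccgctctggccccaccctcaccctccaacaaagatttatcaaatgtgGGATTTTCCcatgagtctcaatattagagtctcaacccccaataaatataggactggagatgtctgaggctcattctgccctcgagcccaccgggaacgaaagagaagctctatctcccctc

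The kappaB letters were found in CXCL8, CXCL1, CXCL2 and IL6, with the first base at -91, -78, -77 and -72 from the start site, and in 1.64% of all 35116 RefSeq promoter windows. The AP-1 letters were found in CXCL8 at -137 and in IL1A at -12 and 39, and in 7.71% of all windows. Neither motif was found in the windows of IL1B and PTGS2, which says only that these letters are not there. Genes with the kappaB letters were thus found both with (CXCL1, CXCL2, IL6) and without (CXCL8) an H3K4me3 interval in KO. The motifs were chosen with the sequences in view.

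CpG dinucleotides, the feature of promoters that hold H3K4me3 in most cell types, were few in the windows of CXCL8 (4), IL1A (8) and IL1B (2). CXCL1 and CXCL2 had 22 each, PTGS2 had 12 and IL6 had 7, beside a median of 14 over all promoter windows. IL6 kept its H3K4me3 with fewer CpGs than IL1A, so the genes with and without an interval in KO overlap in this count. The GC content was 39.3% for CXCL8, 39.7% for IL1A, 42.3% for IL1B, 49.3% for IL6 and 50.7% for PTGS2, and 66.3% and 65.0% for CXCL1 and CXCL2. In GC content the genes without an interval in KO thus all lay below those with one. This was seen on few genes and was not tested. LIF had no entry among the promoter windows.

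The chemokine genes were taken first. CXCL8, the classical neutrophil attractant, lies on chromosome 4 from 74606220 to 74609440. In WT a 3.0-kb H3K4me3 interval from 74605401 to 74608400 covered its start, reaching from 0.819 kb before to 2.18 kb after it. KO had none, and the nearest KO H3K4me3 interval lay 119 kb away. No H3K36me3, H3K9me3 or MINA interval of either genotype touched the window. A 5.80-kb H4K20me3 interval lay just upstream in WT, from 6.42 to 0.620 kb before the start, and was absent in KO. The active and the silent mark of WT cells met over 0.200 kb.

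CXCL1 (chromosome 4, 74735100 to 74737020) kept its promoter mark. Its H3K4me3 interval measured 4.40 kb in WT and 3.40 kb in KO, of which 3.0 kb were common. In KO it began 0.4 kb farther upstream and ended 1.4 kb earlier, inside the gene, where that of WT ran past its end. A 1.60-kb MINA interval lay over the start in WT, wholly inside H3K4me3, and had no KO counterpart. No H3K36me3 was called at this gene in either genotype.

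CXCL2 (chromosome 4, 74962750 to 74965000, on the minus strand) had the widest H3K4me3 interval of the 3 chemokines, 8.60 kb in WT from 74958401 to 74967000. In KO it measured 4.2 kb, a ratio of 0.488. The upstream edge moved by 0.2 kb and the downstream edge drew back by 4.2 kb, so that the KO interval stopped near the end of the gene. Over that same side WT held a 5.40-kb H3K36me3 interval from 74959201 to 74964600, absent in KO. A 10.4-kb H4K20me3 interval covered the CXCL2 start in WT, whereas the 6.0-kb KO interval stopped 3.0 kb upstream of it.

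CXCL1 and CXCL2 are close copies. Their promoter windows were identical at 222 of 308 aligned positions (72.1%), against 42.6% for CXCL1 and CXCL8. How the mapping treated reads that match more than 1 place is not given in the sources used here.

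**Figure D2:**
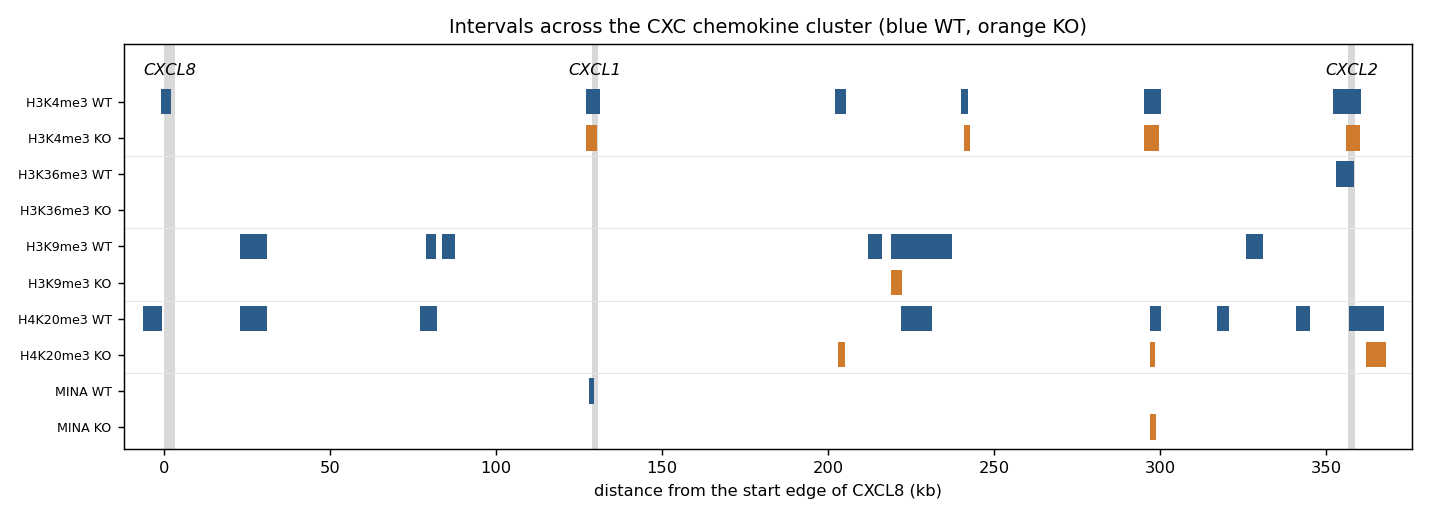
Intervals across the CXC chemokine cluster on chromosome 4, plotted by distance from the start of CXCL8 in kb, 1 row per list, with WT in blue and KO in orange and the 3 genes shaded. KO has fewer intervals than WT for H3K4me3 (4 against 6), H3K9me3 (1 against 6) and H4K20me3 (3 against 8).

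RefSeq places CXCL6, PF4V1, CXCL1, PF4, PPBP, CXCL5 and CXCL3, in this order, between CXCL8 and CXCL2. From the window of CXCL8 to that of CXCL2, H3K4me3 covered 26.6 kb in 6 WT intervals and 14 kb in 4 KO intervals, where the whole KO list covered 0.844 of the WT length. Besides the one at CXCL8, the absent interval was 3.40 kb long and lay 202 kb from the CXCL8 start. The other 2 intervals between CXCL1 and CXCL2 were kept, at 2.00 kb in WT and 1.60 kb in KO and at 5.20 kb in WT and 4.80 kb in KO. No hg19 position of the genes between was used here, so these intervals are not given to a gene. The silent marks were also sparser in KO across the cluster, with H3K9me3 at 42.2 kb in WT and 3.20 kb in KO and H4K20me3 at 44.2 kb and 5.60 kb. The whole lists went the other way, with a KO length of 1.2 times that of WT for H3K9me3 and 2.23 times for H4K20me3, although 31.4% and 44.6% of their WT intervals were absent in KO. The only KO MINA interval of the cluster, of 1.80 kb, lay 297 kb from the CXCL8 start and had no WT counterpart.

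The interleukin-1 genes lie side by side on chromosome 2 from 113531490 to 113594360, both read from right to left. IL1B ends the span on the right. A 4.40-kb H3K4me3 interval from 113590401 to 113594800 covered its start in WT, and a 7.40-kb H3K36me3 interval from 113587001 to 113594400 ran along the gene. Neither had a KO counterpart.

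IL1A, of 10569 bp in RefSeq, lies at the left end, and its own hg19 edges were not given. In WT a 4.60-kb H3K4me3 interval lay 6.91 to 11.5 kb from that end, where a gene of this length would start. H3K36me3 intervals of 2.20 and 7.40 kb lay between 0.111 and 10.5 kb, along the gene. All 3 were absent in KO, and the nearest KO H3K36me3 interval lay 9.29 kb outside the span.

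The edge of the same window also held H3K4me3 that lies at neither IL1 gene. On the side where RefSeq places CKAP2L, an H3K4me3 interval reached into the window, with 9.40 kb in WT and 7.60 kb in KO. A 28.6-kb WT H3K36me3 interval beside it was wholly covered by a 29.6-kb KO interval. It is this H3K4me3 interval alone that counts the window as holding the mark in KO, with 0.711 kb inside it against 9.71 kb of H3K4me3 in WT.

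Between IL1A and IL1B, and at the start of IL1B, WT cells held silent marks. H4K20me3 lay in 6 intervals over 33.0 kb, and H3K9me3 in 3 intervals over 11 kb, of which 7.20 kb also carried H4K20me3. In KO there were 2 H4K20me3 intervals over 7.20 kb and 1 H3K9me3 interval over 1.40 kb. A 12-kb H4K20me3 interval ran across the IL1B start in WT and was absent in KO, as was the H3K4me3 that it met there. The IL1 locus thus had fewer intervals of the active and of the silent marks in KO, and no MINA interval in either genotype.

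Of the gp130 cytokines, IL6 (chromosome 7, 22766760 to 22771630) was the gene with the least change in H3K4me3. The interval ran from 22765601 to 22771200 in WT and was wholly inside the KO interval from 22765401 to 22771400, which was 0.2 kb longer at each edge. H3K36me3 over the gene body was shorter in KO, with 5.80 kb in WT and 3.40 kb in KO, all of the KO part lying inside that of WT. A 4.2-kb H4K20me3 interval was found in KO only, 8.36 to 4.16 kb upstream of the start. No MINA or H3K9me3 interval touched the window.

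LIF (chromosome 22, 30636430 to 30642850, on the minus strand) differed from the others in the place of its H3K4me3. The interval lay wholly upstream, from 19.6 to 1.35 kb before the start edge in WT and from 13.6 to 1.75 kb in KO. Its width was 18.2 kb in WT, wider than or as wide as 97.2% of the WT list, and 11.8 kb in KO. The distal edge drew back by 6.0 kb and the edge near LIF by 0.4 kb. H3K36me3 ran across the whole gene in both genotypes, over 23.2 kb in WT and 20.4 kb in KO.

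MINA at LIF was a 31.4-kb interval from 30626601 to 30658000 in WT, at the 97.9th percentile of widths of the WT MINA list. It covered the whole gene and 16.4 kb of the window, all of it also under H3K36me3. The nearest KO MINA interval lay 109 kb away. H4K20me3 lay just outside the window on both sides in KO and on the upstream side in WT.

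PTGS2 (chromosome 1, 186640940 to 186649560, on the minus strand) had a 5.60-kb H3K4me3 interval over its start in WT and a 3.20-kb one in KO, a ratio of 0.571. The KO interval lay inside the WT one and was shorter by 0.8 kb upstream and by 1.6 kb downstream. A 9.20-kb H3K36me3 interval in WT ran from 1.84 kb before the start to 7.36 kb after it. It was absent in KO, with the nearest KO interval 250 kb away. The 1.2-kb WT MINA interval at the start, from 0.840 kb before to 0.359 kb after it, was absent in KO. Neither silent mark touched the window.

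**Figure D3:**
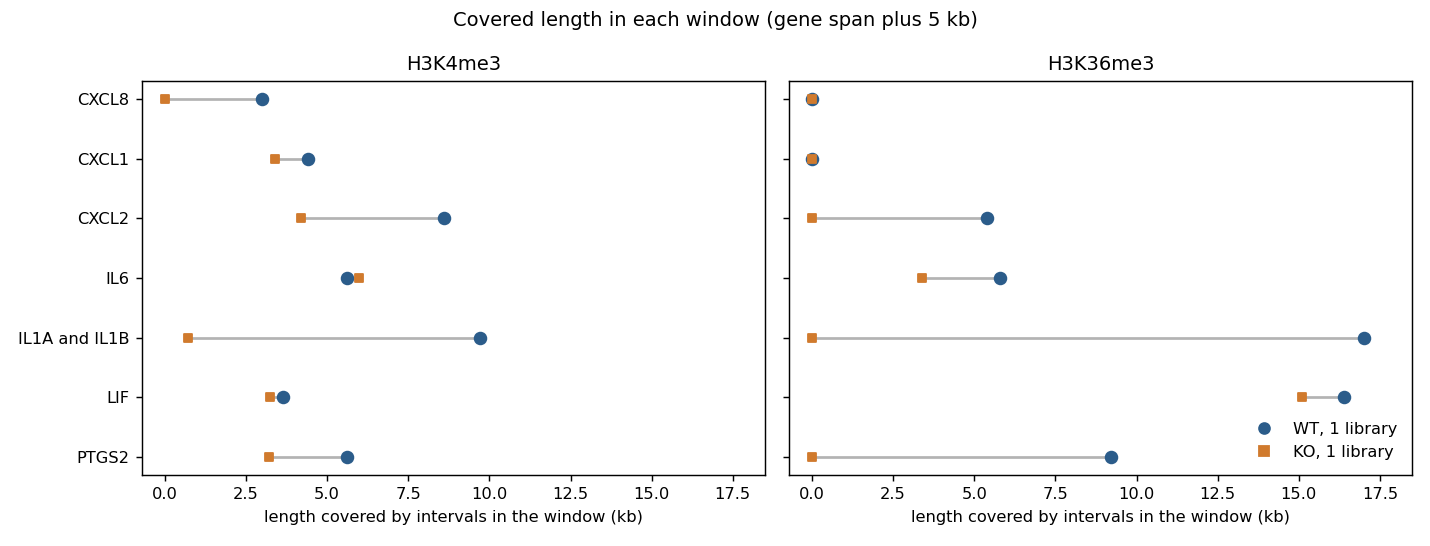
Length covered by H3K4me3 (left) and H3K36me3 (right) intervals in each window, in kb, with WT as blue circles and KO as orange squares, 1 library each. Where WT has an interval, KO is at 0 for H3K4me3 at CXCL8 and for H3K36me3 at CXCL2, the IL1 genes and PTGS2. CXCL8 and CXCL1 have no H3K36me3 in either genotype. Only IL6 has more H3K4me3 in KO.

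Counted over all windows, 9 WT H3K4me3 intervals were found, of which 3 (33.3%) had no KO counterpart. They lay at CXCL8, IL1A and IL1B, so most came from the IL1 window. In the whole WT list 14.9% had none, and among the 3493 WT intervals of 3.0 to 4.60 kb, the widths of the 3 absent ones, 15.5% had none. This range was set by the absent intervals, whereas the 33.3% includes wider ones. The CXCL1 interval of 4.40 kb also falls in it and was kept. Of the 6 that met a KO interval 5 were narrower in KO, while 65.6% of all such H3K4me3 pairs in the genome were. The 9, the 6 and the 5 include the interval on the CKAP2L side of the IL1 window, which lies at neither IL1 gene. Its width ratio was 0.809, at the percentile 34.3. The width ratios at CXCL2 (0.488), PTGS2 (0.571) and LIF (0.648) stood at the percentiles 3.90, 7.83 and 13.2 of all pairs, whose median was 0.894, and those at CXCL1 (0.773) and IL6 (1.07) at 28.7 and 78.8. Summed over the windows H3K4me3 covered 40.6 kb in WT and 20.8 kb in KO, a ratio of 0.512 beside 0.844 for the whole lists. Without the IL1 window the ratio was 0.650.

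For H3K36me3, 5 of 7 WT intervals (71.4%) were absent in KO, beside 14.5% of the whole list. All 3 of the IL1 window were among them, and the others lay at CXCL2 and PTGS2. The share was higher among short intervals: of the 6981 WT intervals between 2.20 and 9.20 kb, the widths of the absent ones, 27.6% were absent in KO. This range too was set by the absent intervals, whereas the 71.4% includes the wider LIF interval. The kept IL6 interval falls in the range. The kept pairs, at IL6 and LIF, were both narrower in KO (ratios 0.586 and 0.879), as were 43.9% of all pairs. The covered length was 53.8 kb in WT and 18.4 kb in KO, a ratio of 0.343, whereas the whole lists had a ratio of 1.00. Without the IL1 window the ratio was 0.501.

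The silent marks and MINA were counted in the same way. Of 8 WT H4K20me3 intervals 5 were absent in KO, 62.5% beside 44.6% of the whole list, and of 3 WT H3K9me3 intervals 2 (66.7%) were absent, beside 31.4%. In the 1 Mb to either side of the windows, pooled, the shares were 59.6% for H4K20me3 and 60.4% for H3K9me3, close to those of the windows. The pool joins unlike places. The IL1 window held 6 of the 8 H4K20me3 and all 3 H3K9me3 intervals. In its own sides 33.3% of 6 H4K20me3 and 75.0% of 12 H3K9me3 intervals were absent. In the sides of CXCL8 66.7% of 24 H4K20me3 intervals were. All 3 MINA intervals were absent, where 61.2% of the whole list and 59.5% of those in the sides were. The whole MINA list of KO cells, which per the labels make no mdig, covered 35.68 Mb against 119.6 Mb in WT, a ratio of 0.298 that includes KO intervals with no WT counterpart. Of the 4 KO H4K20me3 intervals in the windows, only 1, at IL6, had no WT counterpart. This is a lower share than the 80.4% of the whole KO list, on few intervals. H4K20me3 covered 43.9 kb in WT and 10.0 kb in KO over the windows, a ratio of 0.229, while the whole KO list was 2.23 times as long as that of WT. H4K20me3 was called in 3 windows of each genotype, but with a 2-kb flank in only 1 of KO.

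**Figure D4:**
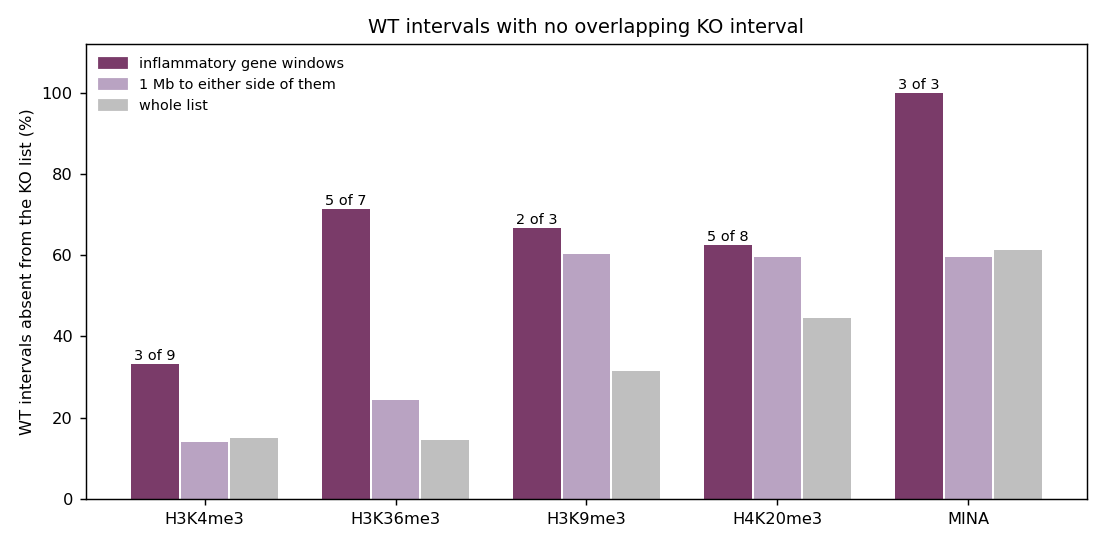
Share of WT intervals with no overlapping KO interval, in percent, for each antibody in the 7 windows (dark, with counts), in the 1 Mb to either side of them (light) and in the whole WT list (grey). For H3K4me3 and H3K36me3 the windows stand above both references (33.3% against 14% and 14.9%, and 71.4% against 24.3% and 14.5%), with 9 and 7 intervals behind them. The IL1 window alone holds 3 of the 9 and 3 of the 7. Its intervals absent in KO are those at IL1A and IL1B for H3K4me3, and all 3 for H3K36me3. Most of the absent intervals of both marks thus come from this single locus. Among WT H3K36me3 intervals as wide as the absent ones the share, not drawn, was 27.6%. For H3K9me3 and H4K20me3 the windows lie near their pooled sides (66.7% against 60.4%, and 62.5% against 59.6%), with 3 and 8 intervals. The IL1 window holds 3 and 6 of these, and in its own sides 75.0% and 33.3% were absent.

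The KO over WT ratio varied along the genome, so each window was set beside the 1 Mb to either side. The sides of IL6 had an H3K4me3 ratio of 1.04, close to the 1.07 of the gene, and those of the other windows ran from 0.643 to 0.875. The sides of the chemokine windows overlap and hold each other's intervals. IL1A and IL1B had 0.0732 in the window and 0.875 in the sides, CXCL2 0.488 and 0.671, and PTGS2 0.571 and 0.687, while CXCL1 (0.773 against 0.643) and LIF (0.890 against 0.819) lay above their sides. CXCL8 had no H3K4me3 in KO where its sides kept 0.674 of the WT length. Around CXCL2 and PTGS2 many H3K36me3 intervals of the sides were themselves absent in KO, 58.8% of 17 and 71.4% of 7, whereas around the IL1 genes 15.6% of 32 were absent. The part of the neighbourhood in the values of CXCL2 and PTGS2 was not tested.

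The silent marks were also set beside their surroundings. The H4K20me3 ratio was 0.303 at CXCL2 with 0.256 in its sides, and 0.218 at the IL1 genes with 0.636 in their sides. In the sides of IL6 it was 4.80, and IL6 was the window with H4K20me3 in KO only. In the sides of CXCL8, CXCL1, CXCL2, PTGS2 and the IL1 genes H3K9me3 covered 0.179 to 0.277 of its WT length in KO, and 0.127 inside the IL1 window.

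**Figure D5:**
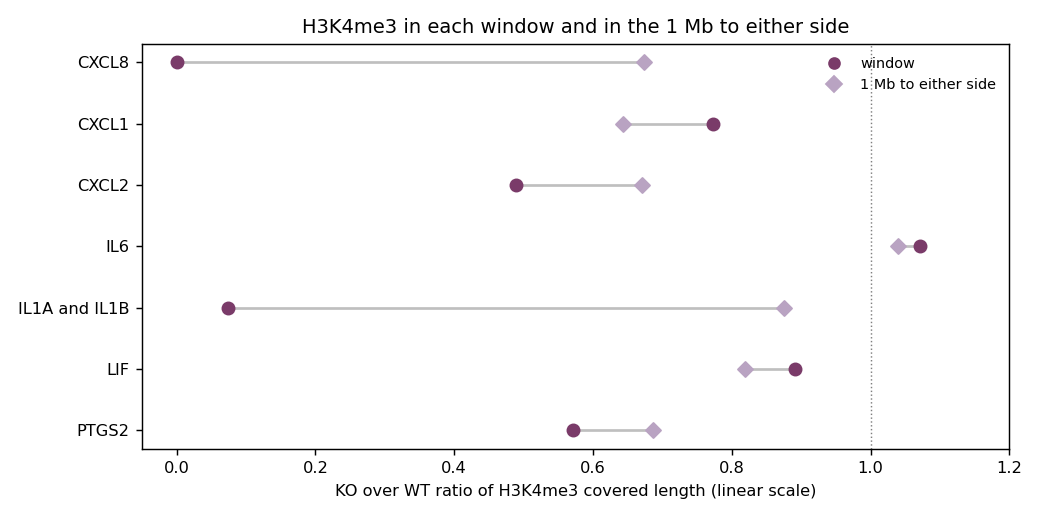
KO over WT ratio of the H3K4me3 covered length (x axis, linear) in each window (circles) and in the 1 Mb to either side (diamonds); the dotted line marks equal lengths. The windows of CXCL8 (no H3K4me3 in KO, drawn at 0) and of the IL1 genes (0.0732) lie farthest below their sides, and IL6 (1.07) lies beside its own (1.04).

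Taken gene by gene with a 2-kb flank, H3K4me3 was present at 8 of 8 genes in WT and 5 of 8 in KO, and H3K36me3 at 6 and 2. Over the genome cut into 15-kb tiles, 14.7% of the tiles with H3K4me3 in WT had none in KO. The share was 9.57% for H3K36me3, 43.5% for H4K20me3 and 60.6% for MINA. The tiles are longer than these genes with their 2-kb flank, and a longer stretch holds some interval more readily, so the shares are a rough reference. The 5 genes that kept H3K4me3 were CXCL1, CXCL2, IL6, LIF and PTGS2, and the 2 that kept H3K36me3 were IL6 and LIF. H4K20me3 was at 4 genes in WT (CXCL8, CXCL2, IL1A and IL1B) and at none in KO, and H3K9me3 was at none in either genotype. Of all 15-kb tiles, 5.44% held H4K20me3 in WT and 13.7% in KO, and 22.8% and 21.7% held H3K9me3. The tile shares for MINA were 9.76% in WT and 4.61% in KO. MINA was at 3 genes in WT, and each of these, CXCL1, LIF and PTGS2, kept an H3K4me3 interval in KO. The 3 genes that lost H3K4me3 had no MINA interval in WT and had H4K20me3 within 2 kb in WT. CXCL2 and IL6 also had no MINA interval in WT and kept H3K4me3. CXCL2 also had H4K20me3 in WT and kept a narrower H3K4me3 interval. These patterns among 8 genes were seen after the fact and were not tested.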

How the data were processed

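Reads were aligned with BWA to hg19 and enriched intervals were called with SICER 1.1, per the submitters' processing notes. Caller settings, scaling to depth and any role of the input library are not given by these notes, and the input, whose label has no genotype, was not used. The authors deposited 1 list of interval starts and ends per ChIP library, on a 200-bp grid and without scores or counts, and a merged list that was not used. Coordinates are 1-based.

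Intervals were assigned to windows, compared between genotypes by at least 1 bp of overlap, and set beside the whole lists and the 1 Mb to either side, with Python 3.11.15 and numpy 2.4.6. Interval numbers and lengths were checked on lists made with known answers. The gene spans came with the choice of members. The genes named are these 8 members and the genes that RefSeq (GRCh38.p14, names, order and lengths only) places between or beside them. Other NF-kappaB pathway genes that had been listed were not analysed here for want of hg19 positions. The members, lists and comparisons were chosen with earlier results of these data known. With 1 library per antibody and genotype no test was possible, and the planned 15-kb tiling of the genome gave H3K4me3 in 12.3% of tiles in WT and 11.2% in KO, and H3K36me3 in 15.7% and 15.8%.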

Additional observations from a re-analysis of the deposited data

How the results depend on the processing

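The ratio of covered length and the number of windows with an interval were recomputed for each antibody with no flank or flanks of 2, 10 and 20 kb, with intervals within 5 kb merged, with intervals of at least 2 kb, without the IL6 or the IL1 window, by interval number, and divided by the ratio of the whole lists or of the sides. Counting 8 genes with a 2-kb flank was added after seeing the data. H3K4me3 ratios ran from 0.422 to 0.667 and those of H3K36me3 from 0.262 to 0.501, all below 1, and no ratio of any antibody changed direction. With no flank H3K4me3 was in 6 WT and 4 KO windows, against 7 and 6 as reported.

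Of 144 values 24 moved by over 1.5 times, the cause of which was not tested beyond what each setting leaves out or adds. Without IL6, H3K36me3 was left in 1 KO window. H3K9me3 was in 2 WT windows with 20 kb, in 0 windows of either genotype without the IL1 window or by gene, and in 0 KO windows at 2 kb or more; its ratio was 0.0551 with 20 kb, 0 at 2 kb or more, 0.333 by number and 0.459 over the sides. H4K20me3 was in 1 KO window with no flank and with 2 kb, and at 0 genes in KO; its ratio was 0.432 with 10 kb, 0.401 with 20 kb, 0.50 by number, 0.103 over the whole lists and 0.423 over the sides. MINA was in 1 WT window at 2 kb or more, and in 1 KO window with 10 or 20 kb, with ratios of 0.0524 and 0.0367. The H3K9me3 ratio without the IL1 window has no value, since no interval is left. No paired analysis was possible because each antibody and genotype has 1 library. Depth is unknown, so how much of an absent interval is due to fewer reads was not tested.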
